A study of Mus musculus with 38 samples.

Results

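The regions described here are H3K4me1 domains of cultured mouse epidermal stem cells (EpdSCs). They were called in cells given doxycycline (DOX) with each of 3 variants of SOX9, and not in the list of cells without DOX. They were chosen by the called domains themselves. A domain of the list with wild-type (WT) SOX9 and DOX was taken when the list of WT cells without DOX held no domain sharing 1 bp with it, while the lists of both mutants with DOX did. Of 116042 WT domains, 33788 had no counterpart without DOX, which is 29.1%, and 3940 of those were also in the ΔHMG and ΔTA lists. By the same rule, gains against the list without DOX made up 19.3% of 116326 ΔHMG domains and 25.8% of 123338 ΔTA domains. Because these calls chose the shared gains, their presence with DOX and absence without it are a description and were not tested.

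H3K4me1, monomethylation of histone H3 at lysine 4, is laid down mainly by the methyltransferases MLL3 and MLL4 and marks primed and active enhancers as well as the flanks of promoters. H3K27ac, acetylation at lysine 27 of the same histone, marks the active ones. SOX9 is the hair follicle stem cell factor whose HMG domain binds DNA and bends it and whose C-terminal transactivation domain contacts co-activators. ΔHMG-SOX9 lacks the former and ΔTA-SOX9 the latter. A domain that was called with all of them was thus called also where one or the other activity was missing. In skin epithelium, AP1, a dimer of FOS and JUN proteins that responds to growth factors and stress, and TEAD, the DNA-binding partner of YAP, are known to occupy many enhancers.

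The cells were primary EpdSCs from the back skin of newborn *Krt14-rtTA* mice, in which the promoter of a basal keratin drives the DOX-dependent activator. They were infected with lentivirus holding MYC-tagged *Sox9* under a tetracycline-responsive element and were selected with puromycin. All 4 conditions, the one without DOX included, carried the activator and a *Sox9* transgene. The 4 lists came from 2 MINT-ChIP libraries, a high and a low nuclease digest, in which barcoded chromatin of all conditions was pooled before immunoprecipitation. The barcodes of each library named 6 conditions, among them both mutants without DOX, and those 2 were not analysed here. The only uninduced reference was thus 1 list of WT cells. For the mutant lists, the line cannot be told apart from DOX. In all 3 lists, DOX itself, expression of the SOX9 parts that all 3 variants keep and chance differences of the 1 uninduced list cannot be told apart. Nor can fewer cells bearing the mark be told apart from less of the mark in each cell. The other 36 libraries, of which total histone H3 was not used here, were of skin of *Krt14-rtTA;TRE-Sox9* mice, sorted without DOX (D0) or after 1, 2, 6 and 12 weeks of it (W1, W2, W6 and W12), the last from grafted skin, and gave 5 H3K4me1 and 5 H3K27ac lists. Every list was pooled by the authors, so that no value below has a replicate, and a share is given with its exact 95% interval (Clopper-Pearson), for counting error alone. The depth behind the culture lists is unknown. Of genes that define the epidermal lineage, *Krt5*, the basal keratin, had 7 WT domains within 10 kb and *Trp63*, which encodes the master regulator p63, had 26.

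Sequences of a few high-ranking members are shown first, to make plain what these regions consist of. Members were ranked by the lowest of their 3 scores with DOX, the score being a whole number that grows with the evidence for a domain. All are the plus strand of GRCm38, read from the RefSeq assembly. Capitals mark the AP1 motif TGANTCA and the SOX core ACAATG or its complement. The 4 highest-ranking members with an AP1 match in their central 300 bases are given as 121 bases around it. They lie at chr8:91249141-91249261 in an intron of *Rpgrip1l*, at chr13:30606535-30606655 between genes, at chr3:151757460-151757580 at 5132 bp from the nearest protein-coding start, that of *Ifi44l*, and at chr6:108521214-108521334 in an intron of *Itpr1*.
Rpgrip1l intron: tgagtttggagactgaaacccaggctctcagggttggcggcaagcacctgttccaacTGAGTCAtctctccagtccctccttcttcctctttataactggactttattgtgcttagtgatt
chromosome 13 intergenic: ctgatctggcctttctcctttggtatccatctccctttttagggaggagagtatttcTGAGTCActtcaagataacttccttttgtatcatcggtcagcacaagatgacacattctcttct
near Ifi44l: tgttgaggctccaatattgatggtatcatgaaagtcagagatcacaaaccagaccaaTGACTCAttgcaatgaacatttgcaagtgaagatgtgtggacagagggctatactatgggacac
Itpr1 intron: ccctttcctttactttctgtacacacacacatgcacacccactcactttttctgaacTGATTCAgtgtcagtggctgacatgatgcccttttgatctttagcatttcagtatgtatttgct

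The 3 highest-ranking members with a SOX core are given in the same way, at chr3:127652737-127652857 between genes, at chr15:101339666-101339786 between genes and at chr6:83286426-83286546 in an intron of *Slc4a5*.
chromosome 3 intergenic: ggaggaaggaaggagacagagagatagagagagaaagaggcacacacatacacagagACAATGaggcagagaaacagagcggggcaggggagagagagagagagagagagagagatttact
chromosome 15 intergenic: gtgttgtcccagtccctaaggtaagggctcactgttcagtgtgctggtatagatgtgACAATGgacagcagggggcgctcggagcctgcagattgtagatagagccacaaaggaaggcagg
Slc4a5 intron: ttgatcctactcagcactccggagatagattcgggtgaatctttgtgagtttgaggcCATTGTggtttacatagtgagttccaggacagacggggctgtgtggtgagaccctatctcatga

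The member with the highest WT fold among the 10 top-ranking ones, chr19:18834888-18835154 in an intron of *Trpm6*, is shown whole, and its letters hold neither motif.
Trpm6 intron: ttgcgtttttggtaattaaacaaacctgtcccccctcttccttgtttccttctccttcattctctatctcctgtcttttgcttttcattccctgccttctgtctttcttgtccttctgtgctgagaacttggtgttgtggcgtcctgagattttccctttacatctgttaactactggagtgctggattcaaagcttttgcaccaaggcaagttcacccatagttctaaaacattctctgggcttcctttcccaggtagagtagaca

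Shared gains were a small part of the WT domains that had no counterpart without DOX. Of the 33788 WT gains, 11.7% (11.3 to 12.01) were in both mutant lists, 8.24% in the ΔHMG list but not the ΔTA list, 9.25% in the ΔTA list but not the ΔHMG list, and 70.9% (70.4 to 71.3) in neither. Of WT domains that were also found without DOX, by contrast, 85.8% (85.5 to 86.0) were in both mutant lists. WT gains were found with ΔHMG in 6723 cases (19.9%) and with ΔTA in 7066 (20.9%). Of all 116042 WT domains, by comparison, 33502 lacked an overlap in the ΔHMG list and 35358 in the ΔTA list.

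To see whether the list without DOX stood apart, domains present in 3 of the 4 lists were counted for each possible missing list. Between 3940 and 4019 domains were missing only without DOX, according to the list in which they were counted. Those missing only with ΔHMG numbered 3056 to 3181 and those missing only with ΔTA 5255 to 5366. The number missing only from the uninduced list thus lay between the numbers for 2 induced lists. These counts were not adjusted for list length, and the list without DOX was the shortest, at 110589 domains. Domains missing only with WT SOX9 and DOX were far more frequent, at 13146 to 13221. Among stronger domains the order was the same. Of the shared gains, 278 were above the median score of all 3 lists with DOX, or 7.06% (6.28 to 7.90). The same limit kept 166 of the domains missing only with ΔHMG, 440 of those missing only with ΔTA and, counted in the ΔHMG list, 1793 of those missing only with WT. A fold of 5 or more in every list that had the domain left 38, 16, 64 and 349 of them in that order. In the opposite direction, 6780 domains of the list without DOX were absent from all 3 lists with DOX. The count of like form, domains of the WT list with DOX that none of the other 3 held, is the 23939 WT-only gains.

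**Figure D1:**
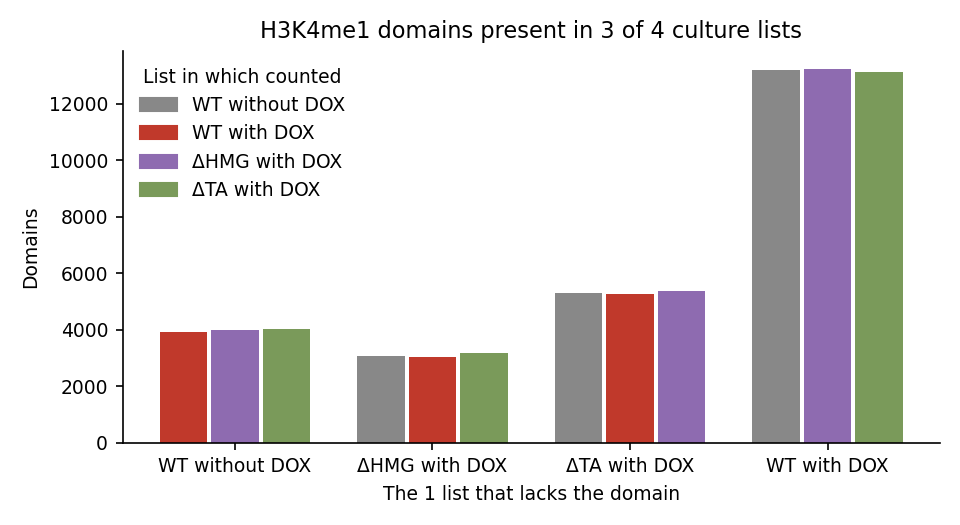
Number of H3K4me1 domains that were present in 3 culture lists and absent from the fourth, named on the horizontal axis. Bars are coloured by the list in which the domains were counted. Domains missing only from WT without DOX, the shared gains, numbered 3940 to 4019, between those missing only with ΔHMG (3056 to 3181) and only with ΔTA (5255 to 5366), while 13146 to 13221 were missing only with WT SOX9.

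The shared gains were weak domains of similar height in the 3 lists. Fold is the authors' linear ratio of signal to local background, and it had a median of 3.33 in the WT list, 3.43 in the ΔHMG list and 3.36 in the ΔTA list. Its range in the WT list was 1.62 to 9.54. For comparison, WT-only gains had a median of 3.41 and constant domains, those in all 4 lists, 3.62. No list was systematically the highest for the shared gains, since the WT fold was the highest of the 3 in 31.9% of members, the ΔHMG fold in 34.9% and the ΔTA fold in 33.2%. The highest fold was under 1.5 times the lowest in 3145 members and 2 or more times the lowest in 78. Across the 3940 members, Spearman's rho of the folds was 0.46 between WT and ΔHMG, 0.41 between WT and ΔTA and 0.54 between ΔHMG and ΔTA. These points share the libraries and the calling threshold, so the values describe these lists alone.

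Width set the shared gains apart from constant domains but not from WT-only gains. Their median width was 631 bp, against 630 bp for WT-only gains and 1160 bp for constant domains. The median score was 33, against 34 and 54. Of the members, 31.5% were above the median score of the WT list, 25.4% above that of the ΔHMG list and 31.5% above that of the ΔTA list, and 1692 (42.9%) were below it in all 3. Nearly all members, 3902, overlapped a single domain in each mutant list, and 2350 had 50% or more of their width within 1 domain of each.

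**Figure D2:**
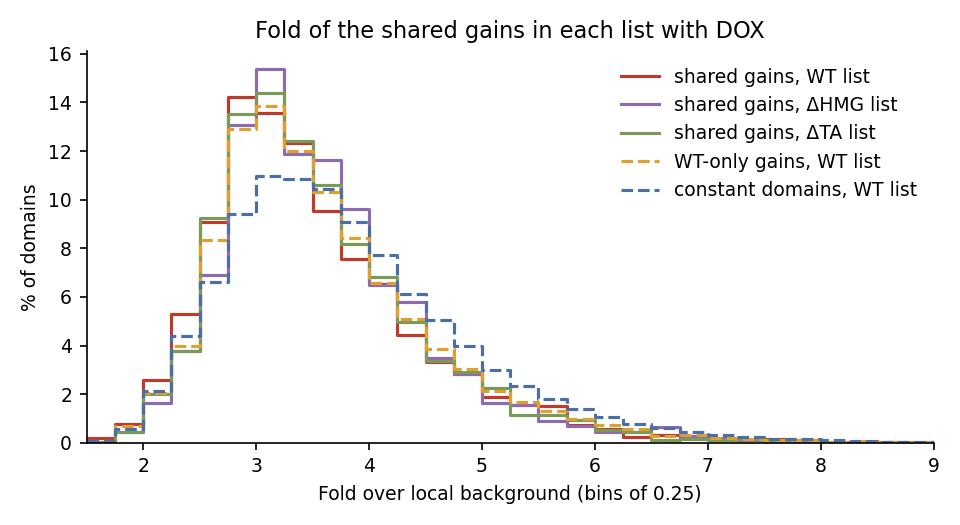
Distribution of the fold over local background in bins of 0.25, as a percentage of domains. Solid lines are the shared gains in the WT, ΔHMG and ΔTA lists with DOX (medians 3.33, 3.43 and 3.36), and dashed lines are WT-only gains and constant domains in the WT list (medians 3.41 and 3.62), which overlap over most of their range.

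The threshold of the rule was the absence of any shared base without DOX. Members lay at a median of 4264 bp from the nearest domain without DOX, against 6622 bp for WT-only gains, and 8.02% (7.19 to 8.91) of members lay under 1000 bp from one, against 3.02% (2.80 to 3.24). The closest was 2 bp away. Just inside the threshold, 82 members under 250 bp from a domain without DOX had a median WT fold of 2.93. Just outside it, 52 domains of all 4 lists that shared 50 bp or less with a domain without DOX had a median WT fold of 2.89. When every culture list was limited to domains above its own median score, 2526 shared gains were found, but 2248 of these (89.0%) overlapped a weaker domain of the full list without DOX. The other 278 are the members above the median score of all 3 lists with DOX. By the rule, no member overlaps the full list without DOX, so these were set apart by score alone.

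The 10 highest-ranking members, described next, were scattered over the genome and differed in height, width and repeat content. The first, chr3:127652556-127652962, lay between genes, 19420 bp from the start of *Neurog2*, which encodes a neuronal bHLH factor. Its fold was 7.65 with WT, 8.61 with ΔHMG and 9.46 with ΔTA, and 44.0% of its bases were repeat-masked. Skin H3K4me1 covered it at W2 and W6 only. The second, chr15:101339249-101340003, lay beside the type II keratin cluster, 24574 bp from the start of *Krt80*. Its scores were 267, 184 and 138, but its folds were only 3.74, 3.51 and 3.10, which are near the median of the members. It was covered by H3K4me1 and H3K27ac of skin at all 5 times.

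Introns held 4 of the next 8. The member in *Luc7l2*, a splicing factor gene, at chr6:38562547-38563269 had folds of 5.74, 5.11 and 6.56. That in *Ncoa7*, which encodes a nuclear receptor co-activator, at chr10:30710021-30710407 had 6.72, 6.61 and 5.90. Both were on skin H3K4me1 at D0 and W1 and not later. The member in *Rpgrip1l*, which encodes a protein of the ciliary transition zone, at chr8:91249003-91249244 was 242 bp wide with folds of 7.81, 7.27 and 7.92, and 73.1% of it was repeat-masked. That in *Trpm6*, which encodes a magnesium channel, had folds of 9.29, 6.78 and 7.87. Neither of these latter ones was on any skin H3K4me1 domain.

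The member over the start site of *Plekha8*, which encodes a lipid transfer protein of the Golgi, at chr6:54602635-54603257 had folds of 5.24, 6.97 and 5.28. It was the only one of the 10 over a start site. The remaining 3 lay between protein-coding genes. At chr2:75631170-75631465 the folds were 5.84, 5.21 and 5.19, with skin H3K4me1 at all 5 times. Folds at chr7:3089404-3090436 were 6.50, 7.12 and 7.24, with 46.0% of bases repeat-masked, and at chr13:30606480-30606866 they were 6.12, 6.78 and 7.83. No skin H3K4me1 list covered either.

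Like most H3K4me1 domains, the shared gains lay away from start sites, and more of them did so than of domains in general. Of the 3940, 82.5% (81.2 to 83.6) were over 2500 bp from any annotated start site, against 76.1% of all WT domains and 71.2% of constant ones. WT-only gains were more distal still, at 88.3% (87.9 to 88.7). Domains missing only with ΔHMG were at 70.2% and those missing only with ΔTA at 77.0%. Those missing only with WT were at 85.7% (85.1 to 86.3), and those lost with all 3 variants at 83.5% (82.6 to 84.4). Only 128 members (3.25%) covered a start site, compared with 10.5% of constant domains. An exon was touched by 14.9% of members, another 51.6% lay in a gene without touching an exon, and 33.4% lay outside genes. The median distance to a start site was 12522 bp.

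In median repeat content the shared gains were close to the other sets, with 15.8% of bases repeat-masked against 16.1% in WT-only gains and 15.3% in constant domains. Regions made mainly of repeats were more frequent than among constant domains, since over 50% of the bases were repeat-masked in 7.69% (6.88 to 8.57) of members, 8.52% (8.17 to 8.88) of WT-only gains and 4.30% (4.15 to 4.45) of constant domains. Domains lost with all 3 variants had the highest share of these sets, 12.7% (11.9 to 13.5). Mean GC content of the central 300 bases was 46.2% for members, 44.1% for WT-only gains and 48.0% for constant domains.

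By chromosome, the shared gains were spread nearly evenly. They made up 3.395% of all WT domains, with a range over autosomes from 3.01% on chromosome 11 to 4.15% (3.55 to 4.82) on chromosome 17. The X chromosome had 77 members among 2693 domains, or 2.86% (2.26 to 3.56), whereas WT-only gains made up 28.7% of its domains against 20.6% of all WT domains. Members seldom stood close together, and 3675 of them (93.3%) had no other member under 10 kb away. There were 119 pairs and 9 groups of 3, and no larger group. Singled out after their values were seen, the group at chr6:87789277-87807368 over *Rab43*, a small GTPase gene, and the group at chr10:86406987-86420289 in *Syn3*, a synapsin gene, each comprised all 3 WT domains of their span, with no domain without DOX.

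**Figure D3:**
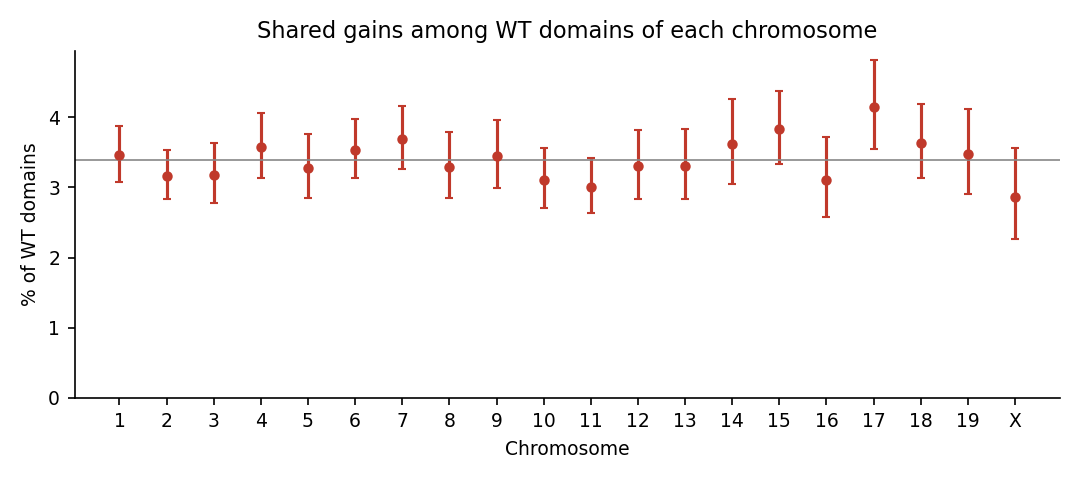
Shared gains as a percentage of all WT domains on each chromosome, with exact 95% intervals for counting error and the share over all chromosomes, 3.395%, as a grey line. Chromosome Y, with 2 members among 8 domains, is left out. Autosomes run from 3.01% on chromosome 11 to 4.15% on chromosome 17, with 2.86% on X.

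Skin H3K4me1, which was not used by the rule, covered the shared gains more often than the gains of WT cells alone and less often than constant domains. At D0, before any SOX9 was induced in the animals, 1725 members (43.8%, 42.2 to 45.3) lay on a skin domain, against 24.3% (23.8 to 24.9) of WT-only gains and 74.9% of constant domains. These intervals were far apart. Sets of similar width that were missing from 1 other list differed among themselves. Domains missing only with WT were at 43.2% (42.4 to 44.1), close to the members, whereas those missing only with ΔHMG were at 63.6% (61.9 to 65.3) and those missing only with ΔTA at 64.0% (62.7 to 65.3), well above them. The narrower domains lost with all 3 variants were at 43.9% (42.7 to 45.1).

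Over the course of SOX9 induction in skin, this share was nearly flat for the members. The lists of W1, W2, W6 and W12 gave 39.3%, 42.6%, 43.5% and 42.2%. WT-only gains went from 24.3% at D0 to 33.1% (32.5 to 33.7) at W2 and back to 24.9% at W12. The skin lists differed in length, from 69439 domains at W1 to 87287 at D0. In all, 966 members (24.5%) were on skin domains at all 5 times, 1545 (39.2%, 37.7 to 40.8) at none, 112 at D0 only and 670 (17.0%) at some later time but not at D0. Of members without skin H3K4me1 at D0, 16.8% (15.3 to 18.4) had it at W2, against 19.4% (18.8 to 19.9) of WT-only gains. The share was 19.8% for constant domains and 19.7% for all WT domains. Of members with it at D0, 24.2% lacked it at W2, against 24.1% of WT-only gains and 16.4% of all WT domains.

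Of the 80 members that D0 lacked and all 4 later lists held, the highest-ranking one was at chr6:7772935-7773266, 71575 bp from the start of *C1galt1*, an O-glycosylation enzyme gene, with folds of 7.15, 5.27 and 6.12. The second, chr13:53659457-53659708, had folds of 2.95, 3.75 and 3.44 and was only 76 bp from a domain without DOX. The third, chr16:45402486-45402861 in an intron of *Cd200*, a surface glycoprotein gene, had folds of 3.08, 4.02 and 3.47, and 92.6% of it was repeat-masked. No skin H3K27ac list covered any of the 3.

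Skin H3K27ac covered few of the shared gains. The D0 list covered 5.89% (5.17 to 6.67) of them and the W2 list 7.89% (7.07 to 8.78), with 7.13%, 7.18% and 5.51% for W1, W6 and W12. WT-only gains went from 2.31% at D0 to 4.69% at W2, and constant domains were between 18.2% and 23.1%. At D0, domains missing only with ΔHMG were at 14.4%, only with ΔTA at 9.97% and only with WT at 4.99%. Those lost with all 3 variants were at 4.62%. Only 66 members were on H3K27ac at all 5 times, and 576 (14.6%) at 1 time or more.

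**Figure D4:**
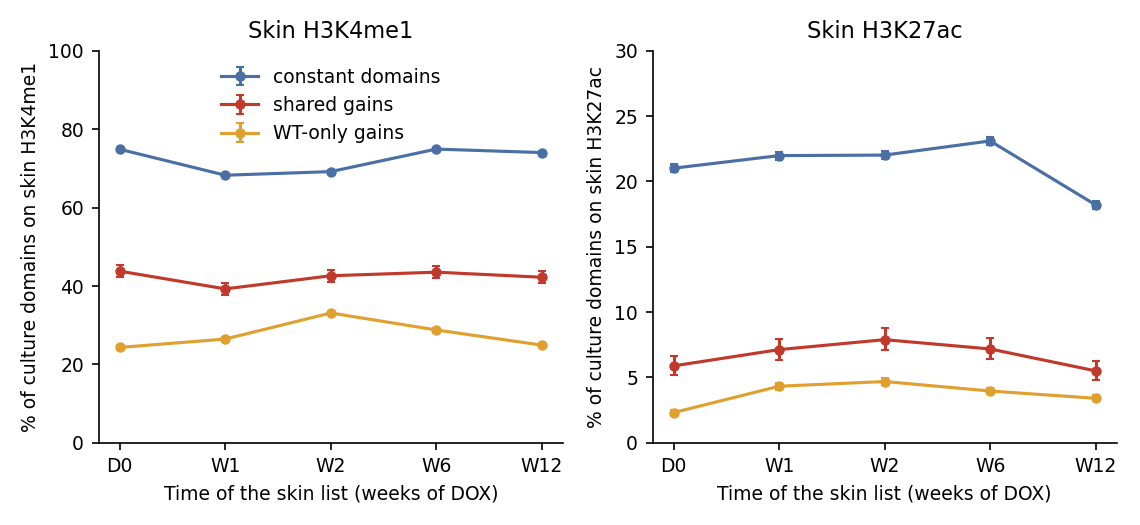
Percentage of culture domains that overlap a skin H3K4me1 domain (left) or H3K27ac peak (right) at D0, W1, W2, W6 and W12, with exact 95% intervals for counting error. The shared gains lie between constant domains and WT-only gains for both marks and are nearly flat for H3K4me1, at 39.3% to 43.8%, while WT-only gains are highest at W2.

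The overlap with skin differed between stronger members and those near a domain without DOX. Members above the median score of all 3 lists with DOX were on a D0 domain in 35.6% (29.98 to 41.6) of cases, and the 38 with a fold of 5 or more in all 3 in 21.1% (9.55 to 37.3). Conversely, members under 1000 bp from a domain without DOX were on one in 57.9% (52.3 to 63.4). These nearby members had a lower median WT fold, 2.98, than the other 3624, at 3.37. The stronger members were also narrower, with median widths of 503.5 and 407.5 bp against 631 bp for all members, and the part of width in the lower overlap was not tested. With every culture list limited to domains above its own median score, the share on a D0 domain was instead 65.0%.

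Motifs were searched in the central 300 bases, on both strands. AP1 matches (TGANTCA) were in 18.3% (17.1 to 19.5) of members, against 11.1% (10.7 to 11.5) of WT-only gains, 15.6% of all WT domains and 17.6% (17.3 to 17.9) of constant domains. The same letters reordered (AGTNACT) were in 10.4% of members and 9.20% of WT-only gains. Domains missing only with ΔTA had AP1 matches in 10.6% (9.78 to 11.5) and those missing only with ΔHMG in 15.5% (14.2 to 16.8), while the highest share was in domains missing only with WT, at 24.9% (24.2 to 25.6). Among distal domains the members were at 19.6% (18.2 to 20.98) and constant domains at 20.2%, so that the AP1 share of the shared gains stood apart from that of WT-only gains and not from that of the domains present throughout.

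SOX cores (ACAATG) were in 18.9% (17.7 to 20.2) of members, 25.4% (24.8 to 25.9) of WT-only gains, 17.5% of all WT domains and 14.7% (14.4 to 14.9) of constant domains. Reversed (GTAACA), the letters were in 11.3%, 11.6%, 10.5% and 9.91% of these. The shared gains thus had fewer SOX cores than WT-only gains and more than constant domains. Domains missing only with ΔTA were at 17.2% (16.2 to 18.2), an interval that overlaps that of the members, and those missing only with ΔHMG were lower, at 15.9% (14.6 to 17.2). Of the members, 163 (4.14%) had both an AP1 match and a SOX core and 2637 (66.9%) had neither. With repeat-masked bases left out, the shares were 15.8% of members for the SOX core against 22.1% of WT-only gains, and 15.5% against 9.52% for AP1.

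TEAD matches (GGAATG) were in 22.3% (20.97 to 23.6) of the shared gains, the highest share of any of these sets. WT-only gains had 19.3% (18.8 to 19.8), constant domains 19.8% (19.5 to 20.1) and domains missing only with WT 21.1% (20.4 to 21.8), an interval that overlaps that of the members. Reversed letters (GTAAGG) were in 11.0% of members and 9.64% of WT-only gains. The motif of GATA factors (AGATAA) was in 16.8% of members and 18.6% of WT-only gains. Its letters reversed (AATAGA) were in 14.2% and 18.004% of these, so that the lower share of the members was not particular to the motif. The motif of RUNX factors (TGTGGT) was in 23.0% of members and 22.4% of WT-only gains, and its letters reversed (TGGTGT) in 18.7% and 17.4%. The letters shared by SOX and TCF proteins (ACAAAG) were in 28.2% of members and 34.4% of WT-only gains.

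Motifs of stress and antiviral pathways had shares among the shared gains whose intervals took in the shares of all WT domains. The ATF4 composite motif (TGATGNAA), read by the factor of the integrated stress response, was in 4.57% (3.94 to 5.27) of members and 4.71% of all WT domains. Interferon response elements were in 4.82% (4.17 to 5.54) and 4.44%, NF-kB motifs in 0.305% and 0.374%, and paired p63 and p53 sites in 1.32% and 1.43%. The CREB and ATF site TGACGTCA was in 0.381% and 0.306%, and the ETS site CCGGAAGT in 0.305% and 0.364%. Motifs typical of CpG-rich promoters and of insulators were less frequent in the members, with the GC box GGGCGGGG in 1.65% (1.28 to 2.10) against 2.43% and the CTCF core AGGGGGC in 3.15% (2.62 to 3.74) against 3.85%. Among distal domains alone the intervals took in the shares of all WT domains, with the GC box in 1.35% (0.986 to 1.81) against 1.65% and the CTCF core in 3.17% (2.595 to 3.83) against 3.31%. A match is a description of letters and not of binding.

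Within the members, AP1 matches were less frequent on regions that carried H3K4me1 in uninduced skin. They were in 15.4% (13.7 to 17.2) of members on a D0 skin domain, 20.3% (18.3 to 22.4) of those on none at any time and 21.2% (18.2 to 24.5) of those on a later one only. SOX cores were in 17.2% (15.5 to 19.1), 21.6% (19.5 to 23.7) and 17.2% (14.4 to 20.2) of these. TEAD matches were in 20.1%, 24.1% and 23.6%, with intervals that overlap.

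**Figure D5:**
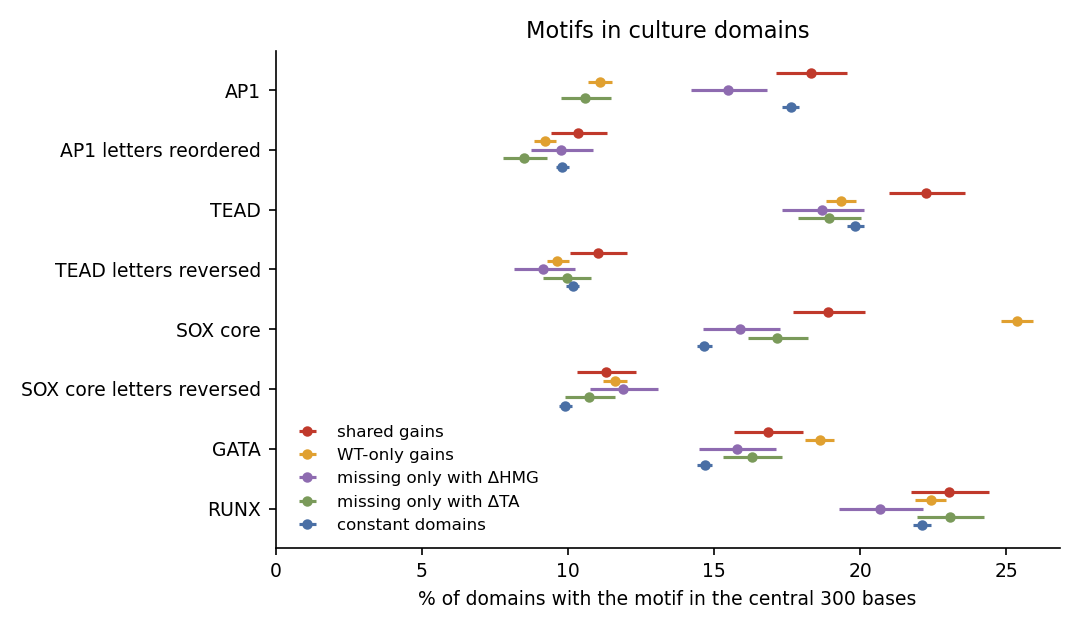
Percentage of domains with each motif in the central 300 bases, with exact 95% intervals for counting error, for 5 sets of culture domains. Letters of AP1, TEAD and the SOX core in another order serve as controls. The shared gains have more AP1 matches than WT-only gains (18.3% against 11.1%), fewer SOX cores (18.9% against 25.4%) and, among these sets, the most TEAD matches (22.3%).

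Genes with shared gains were many and each had few. Within 10 kb of 21938 protein-coding genes, 2891 had a member, 108 had 3 or more and 18 had 5 or more. Taken over all these genes, 3.49% (3.37 to 3.62) of nearby WT domains were members. The genes with the most were long. *Gm20388* and *Fgfr2*, the latter a receptor of fibroblast growth factors, are annotated here with spans of 4435 and 2961 kb that run across other genes, and they had 19 of 451 and 14 of 253 WT domains. *Pde4d*, a cAMP phosphodiesterase gene, had 7 of 95, and *Nrg1*, which encodes an EGF family ligand, 6 of 57. *Etl4* had 6 of 66, *Snd1* 6 of 77 and *Exoc4*, of the exocyst, 6 of 90. *Ltbp1*, which encodes a protein that holds latent TGFβ in the matrix, and *Ccbe1* each had 5 of 35, and *Myt1l*, a neuronal zinc finger gene, 5 of 22 (22.7%, 7.82 to 45.4).

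Of 7 loci that the study discusses, 2 had a shared gain. *Krt5* is among the 7 and is the study's example of a static region. Members were 2 of the 83 WT domains of these loci (2.41%, 0.293 to 8.43), an interval that takes in the 3.49% of all genes. *Sox9*, *Krt5*, *Gata3*, *Ctnnb1* and *Vim* had none, among 2, 7, 8, 9 and 2 WT domains. *Trp63* had 1 of 26, at chr16:25842800-25844231 in an intron, with folds of 2.87, 2.91 and 2.36 and skin H3K4me1 and H3K27ac at all 5 times. *Runx1*, a factor of hair follicle stem cells, had 1 of 29, at chr16:92710467-92710984 in an intron, with folds of 3.45, 3.58 and 2.52 and no skin domain. *Trp63* was also the only one of 13 epidermal identity genes with a member, 1 of 91 WT domains. Of 19 hair follicle stem cell genes, *Itgb6*, *Tcf7l1* and *Tcf7l2* had 1 each among 232 WT domains (1.29%, 0.267 to 3.73).

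Lists of genes that answer to stress held 1 or 2 members each. Of 21 annotated genes of the integrated and mitochondrial stress responses only *Lonp1*, a mitochondrial protease gene, had one, among 107 WT domains. *Isg15* was the only one of 17 interferon and antiviral genes, among 42 domains, and its member at chr4:156188738-156190568 lay in an intron of the neighbouring *Agrn*, with folds of 2.01, 2.04 and 2.09. *Sesn1*, an antioxidant gene, was the only one of 14 p53 targets, among 68 domains. Of 13 AP1 genes *Maf* alone had a member, over its start site at chr8:115703964-115706783, 2820 bp wide with folds of 2.995, 3.15 and 2.92, and on both skin marks at all 5 times. Of 16 cytokine genes *Il1a* and *Tnf* had 1 each, among 49 domains. For each of these lists, as for the epidermal and hair follicle ones, the interval of the share took in the 3.49% of all genes.

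Keratin and differentiation genes had somewhat higher shares, with wide intervals that take in the share over all genes. Of 8 stress and simple epithelial keratins, *Krt8*, *Krt18* and *Krt17* had 1 member each, 3 of 32 WT domains (9.38%, 1.98 to 25.02). The *Krt8* member, chr15:101997865-101998998, had folds of 2.64, 2.72 and 2.81 and lay 480 bp from a domain without DOX. The one near *Krt18*, chr15:102023752-102024386, had folds of 2.55, 2.52 and 2.73 and lay 960 bp from one. Near *Krt17* the member was 76 bp from one and lay on an exon of the neighbouring *Krt42*. *Krt1*, *Cdsn*, *Flg* and *Dsg1a*, genes of the differentiated layers, had 1 each, 4 of 54 domains (7.41%, 2.06 to 17.9). The one near *Krt1* lay on an exon of the neighbouring *Krt77*. The *Flg* member, chr3:93267319-93267920, was the only WT domain within 10 kb of the filaggrin gene, with folds of 3.42, 3.36 and 3.06, and was on skin H3K4me1 at D0, W1, W6 and W12.

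Among 10 chromatin co-factor genes, 5 had members, 11 of 138 WT domains (7.97%, 4.05 to 13.8), and this interval lies above the 3.49% of all genes. *Crebbp*, which encodes a histone acetyltransferase, had 4 of 17 and its paralogue *Ep300* 1 of 5. *Smarca4* and *Arid1b*, which encode subunits of the SWI/SNF remodelling complex, had 3 of 17 and 2 of 52, and *Arid1a* 1 of 17. *Kmt2d*, which encodes MLL4, had none of 6, nor did *Kmt2c* among 9 or *Kmt2a* among 9. The highest-ranking member of the list, chr16:4158090-4158842 in an intron of *Crebbp*, had folds of 2.92, 4.40 and 3.95, lay 14661 bp from the nearest domain without DOX and was on skin H3K4me1 at all 5 times. With 13 lists compared, an interval of this kind for 1 of them is a description.

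Of 12 genes of epithelial to mesenchymal transition and cadherins, *Cdh2* had 3 members and *Twist2* 1, among 94 domains (4.26%, 1.17 to 10.5). Of 19 markers of lineages outside the epithelium, *Mitf* had 3 of 40 and *Kdr*, *Col1a1* and *Olig2* 1 each, 6 of 103 in all (5.83%, 2.17 to 12.2). Both intervals take in the 3.49% of all genes.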

How the data were processed

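MINT-ChIP of H3K4me1 in cultured EpdSCs was analysed from 4 lists of called domains, with 5 H3K4me1 and 5 H3K27ac lists of skin. As the study describes it, the authors trimmed reads with Skewer, aligned them to GRCm38/mm10 with Bowtie2 (2.2.9 in the submitters' processing notes), removed duplicates, merged samples and called domains on the merged reads. The study's methods name epic2 for H3K4me1 domains and MACS2 for H3K27ac peaks, whereas the deposited culture H3K4me1 lists have the layout of MACS2 broad peaks. Which of these callers made the culture lists was not settled, and the control is not given in the sources used here. Each deposited culture domain has a whole-number score, a fold (a linear ratio over local background) and the −log10 of its p and q, and the largest q in these deposited lists was 0.098. The deposited skin H3K4me1 domains carry a p-value, which was not used beyond the calls.

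Domains on 21 chromosomes were kept, and 2 or 3 mitochondrial ones per list were set aside. Overlap meant 1 bp or more. For the mutant lists, the value of a member is that of its highest overlapping domain. Distances were taken to 77161 start sites of GENCODE M21 (basic), and genes were protein-coding with 10 kb on both sides. Motifs were exact letters in the central 300 bases, and repeats were those soft-masked in the assembly. Since each list is pooled, no test between lists was made. Functions were tested on simulated intervals. Python 3 scripts with numpy and pandas were used. The members, gene lists and motifs were chosen with earlier results of these data known. Named members are the 10 with the largest lowest score over the 3 lists with DOX, the top 3 without skin H3K4me1 and the top 3 that D0 lacked and all later lists held, none on chromosome 18, and up to 3 per gene list. Named genes are the 10 with the most members and those of the 13 gene lists. The alternatives were a 50% overlap, domains above the median score, a margin of 1000 bp, lists of equal length, a limit on q, joined domains, no sex chromosomes, other distances and windows, and any skin list. Strong members alone and repeat-masked bases left out were chosen after seeing the data.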

Additional observations from a re-analysis of the deposited data

How the results depend on the processing

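No paired analysis was possible because each culture list is 1 pool, and for the same reason no replicate could be left out. Of 45 values under alternatives, 27 stayed within the counting interval of the main value (counts, within 1.5 times of it) and 18 lay outside. The counting error of the alternative itself was not used for this. With every culture list limited to domains above its median score there were 2526 shared gains, since weak domains without DOX no longer counted, with a median fold of 4.18, 75.3% distal, 65.0% on a D0 domain and 15.9% with a SOX core. The 278 members strong in all 3 lists had 4.68, 83.8%, 35.6% and 16.9%, so that the share at D0 moved in opposite directions under these limits. Their own intervals for the distal share (78.9 to 87.9) and the SOX core (12.7 to 21.8) took in the main values. Overlap of 50% gave 80.5% distal. Counting a domain without DOX within 1000 bp gave a median fold of 3.37. With every list cut by score to the length of the shortest, that without DOX, there were 2873 shared gains in place of 3940. Their median fold was 3.46. Distal limits of 1000 bp and 10000 bp gave 89.4% and 55.4%. Any skin list in place of D0 gave 60.8%. A central window of 1000 bases gave a SOX core in 49.1%, and leaving out repeat-masked bases in 15.8%. With other distal limits, the wider window, any skin list or masked bases left out, the direction of the move was fixed by definition. The cause of the other moves was not tested. The limits are the single uninduced list, the unknown depth of each list and the low scores of most members.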
